A study of Mus musculus with 16 samples.

Results

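The genes of polyamine synthesis and breakdown were followed in primary aortic smooth muscle cells grown from mice. The set holds 10 genes, chosen by name from the gene symbols of the deposited table: Odc1, Azin1, Oaz1, Oaz2, Amd1, Srm, Sms, Sat1, Smox and Paox. All 10 symbols were among the 20581 genes of the table, and all 10 passed the filter on low counts that 14217 genes passed. The total RNA libraries numbered 16, with 4 for every one of 4 groups. KO cells came from RBC.ARG1-KO mice, in which a Cre recombinase driven by the erythropoietin receptor gene (ErCre) removes floxed Arg1 from the red blood cell lineage, and WT cells came from RBC.ARG1-WT littermates. All mice were labelled C57BL/6J and male, and all libraries carry the same batch label. In the DIAM groups, KO and WT, cells spent 10 days in DMEM with 0.1 µM dexamethasone, 1 µM insulin and 50 µg/mL L-ascorbic acid, a mixture meant to load smooth muscle cells with lipid. In the DMEM groups, KO and WT, cells stayed in DMEM with 10% fetal bovine serum. The labels do not say if serum was part of DIAM or how many days the cells in DMEM were kept. A difference in culture time therefore cannot be told apart from one of medium. The Cre is directed at the red blood cell lineage, not at smooth muscle, so KO names the mouse the cells came from. The replicates are called 4 biological ones in the design text and triplicates in the library protocol, and no label says which libraries came from different animals. P-values therefore measure the spread between these libraries, which may be partly technical.

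Polyamines are small, positively charged molecules that bind nucleic acids and that growing cells make in large amounts. Ornithine decarboxylase (Odc1) makes putrescine from ornithine, the product of arginase. Spermidine synthase (Srm) and spermine synthase (Sms) then add aminopropyl groups supplied by adenosylmethionine decarboxylase (Amd1). The antizymes (Oaz1, Oaz2) bind ornithine decarboxylase, hand it to the proteasome and limit polyamine uptake, while the antizyme inhibitor (Azin1), a relative of the enzyme without its activity, ties up antizyme. Breakdown runs through the acetyltransferase Sat1 and the acetylpolyamine oxidase Paox, or directly from spermine through the oxidase Smox. In smooth muscle, polyamine synthesis is known for its link to proliferation.

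The libraries held between 37221313 and 47626242 counts. On log2(CPM + 1) of the genes tested, 80% of the variance lay on the first component, which separated the media, with WT library 2 in DIAM farthest from the rest on the second. Arg1 had 3, 4, 2 and 1 counts in KO libraries in DIAM, 1, 9, 0 and 5 in WT libraries in DIAM, 12, 22, 2 and 49 in KO libraries in DMEM and 3, 4, 3 and 3 in WT libraries in DMEM. It lay below the filter and, since it was removed in another lineage, its counts do not check the genotype labels. Arg2, the mitochondrial arginase, had at most 8 counts in any library. All 10 defining smooth muscle markers were detected in every group. Acta2, the smooth muscle actin, averaged 845 ± 227 CPM in KO and 772 ± 167 CPM in WT cells in DIAM, against 1799 ± 541 CPM in KO and 1960.3 ± 247 CPM in WT cells in DMEM (SD, n = 4 each).

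Cell type markers were also compared between the media. Their counts stand against 60.7% of all genes changed in KO and 55.1% in WT cells. The leukocyte and mesothelial counts lay below these shares in both genotypes. The summed smooth muscle markers lay between 2153 and 3369 CPM in KO cells and between 2066 and 2899 CPM in WT cells in DIAM, against 4210 to 6395 CPM in KO cells and 5103 to 6155 CPM in WT cells in DMEM. In both genotypes 5 of the 10 fell, while 2 rose in KO cells and 1 in WT cells. Fibroblast markers split, 6 rising and 4 falling of 10 in each genotype, with sums of 3054 to 3278 CPM in KO and 3052 to 3677 CPM in WT cells in DIAM, against 2354 to 2636 CPM in KO and 2335 to 2652 CPM in WT cells in DMEM. All 9 tested adipocyte markers rose, with sums of 2717 to 3912 CPM in KO and 1837 to 2844 CPM in WT cells in DIAM, against 80.1 to 136 CPM in KO and 101 to 129 CPM in WT cells in DMEM. No marker of these 3 lists averaged under 0.1 CPM in any group. The adipocyte markers Cidec, Retn and Car3 averaged under 1 CPM in DMEM in both genotypes. They passed the filter through the DIAM libraries, so their rise is not independent of the filter. In RNA from whole cultures, fewer cells of a type and less RNA per cell cannot be told apart. Of 10 endothelial markers 5 rose and 2 fell in KO and 4 rose and 1 fell in WT cells, with sums of at most 142 CPM in DIAM and 78.7 CPM in DMEM. Of 10 leukocyte markers 5 fell in KO cells, and 2 rose and 2 fell in WT cells, with sums of 962 to 1670.1 CPM in DIAM and 886 to 2533 CPM in DMEM. One of these, Fcgr1, averaged under 1 CPM in DIAM and passed the filter through the DMEM libraries. Of 8 mesothelial markers 2 rose in each genotype, with sums up to 706 CPM in DIAM and 351 CPM in DMEM, and the 4 erythroid markers in the table reached 8.26 CPM. The summed Schwann and neuronal markers ran from 60.4 to 195 CPM in KO libraries in DIAM, against 92.5 to 170.0 CPM in DMEM, and overlapped. In WT libraries they ran from 296 to 690 CPM in DIAM, against 95.03 to 154 CPM in DMEM, without overlap. Of the 7 tested, 2 rose and 2 fell in KO cells, and 5 rose and 2 fell in WT cells. The part that these markers have in the results that follow was not tested.

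Levels of different genes were set side by side per kilobase of the longest coding transcript in the GENCODE M21 annotation. In WT cells in DMEM, Oaz1 was the highest at 231.5 ± 25.97 CPM per kb (SD, n = 4), followed by Sat1 at 104 ± 11.3 and Odc1 at 92.0 ± 6.20 CPM per kb. Next came Oaz2 at 68.3 ± 2.82, Srm at 37.3 ± 2.24, Amd1 at 21.5 ± 0.429 and Azin1 at 20.0 ± 1.22 CPM per kb. Smox at 5.00 ± 0.220, Sms at 2.95 ± 0.433 and Paox at 1.57 ± 0.228 CPM per kb were the lowest. Sat1 and Odc1 lay within their spread of each other in this group, as did Amd1 and Azin1. In KO cells in DIAM, Oaz2 at 56.1 ± 1.24 CPM per kb stood above Odc1 at 50.3 ± 2.91 CPM per kb, and Smox at 3.57 ± 0.512 and Paox at 3.37 ± 0.330 CPM per kb lay within their spread of each other, above Sms at 1.48 ± 0.234 CPM per kb. The place of Paox depends on the transcript taken: its longest coding transcript has 4655 bases and the median one 1024, and with the median length it averaged 15.3 CPM per kb in KO cells in DIAM, above Smox at 5.08. So does the order of Oaz2 and Odc1, since with median lengths Oaz2 stood above Odc1 in WT cells in DMEM too, at 93.0 against 92.0 CPM per kb. With median lengths Azin1 also stood above Srm, at 39.3 against 37.3 CPM per kb in WT cells in DMEM.

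DIAM changed most of the pathway, in both directions. In KO cells 5 genes fell, Odc1, Oaz1, Oaz2, Sms and Smox, and 2 rose, Amd1 and Paox, while Azin1, Srm and Sat1 did not pass the test. In WT cells the same 5 fell and 3 rose, Amd1, Paox and Azin1, while Srm and Sat1 did not pass. The test was edgeR's quasi-likelihood test on the 16 libraries with Benjamini-Hochberg adjustment over 14217 genes and a threshold of 0.05. In this design DIAM moved a large share of all genes, 60.7% of those tested in KO cells and 55.1% in WT cells, so 7 of 10 and 8 of 10 are to be read against these shares. By direction, 29.8% of all genes rose and 30.8% fell in KO cells, and 27.6% rose and 27.5% fell in WT cells. The median log2 fold change of the 10 genes was -0.16 in KO and -0.16 in WT cells, against -0.02 and -0.01 over all genes. The libraries of both media did not overlap for 7 of the 10 genes in KO cells, where 55.1% of all genes did not overlap, nor for 7 of the 10 in WT cells, where the share was 49%.

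**Figure D1:**
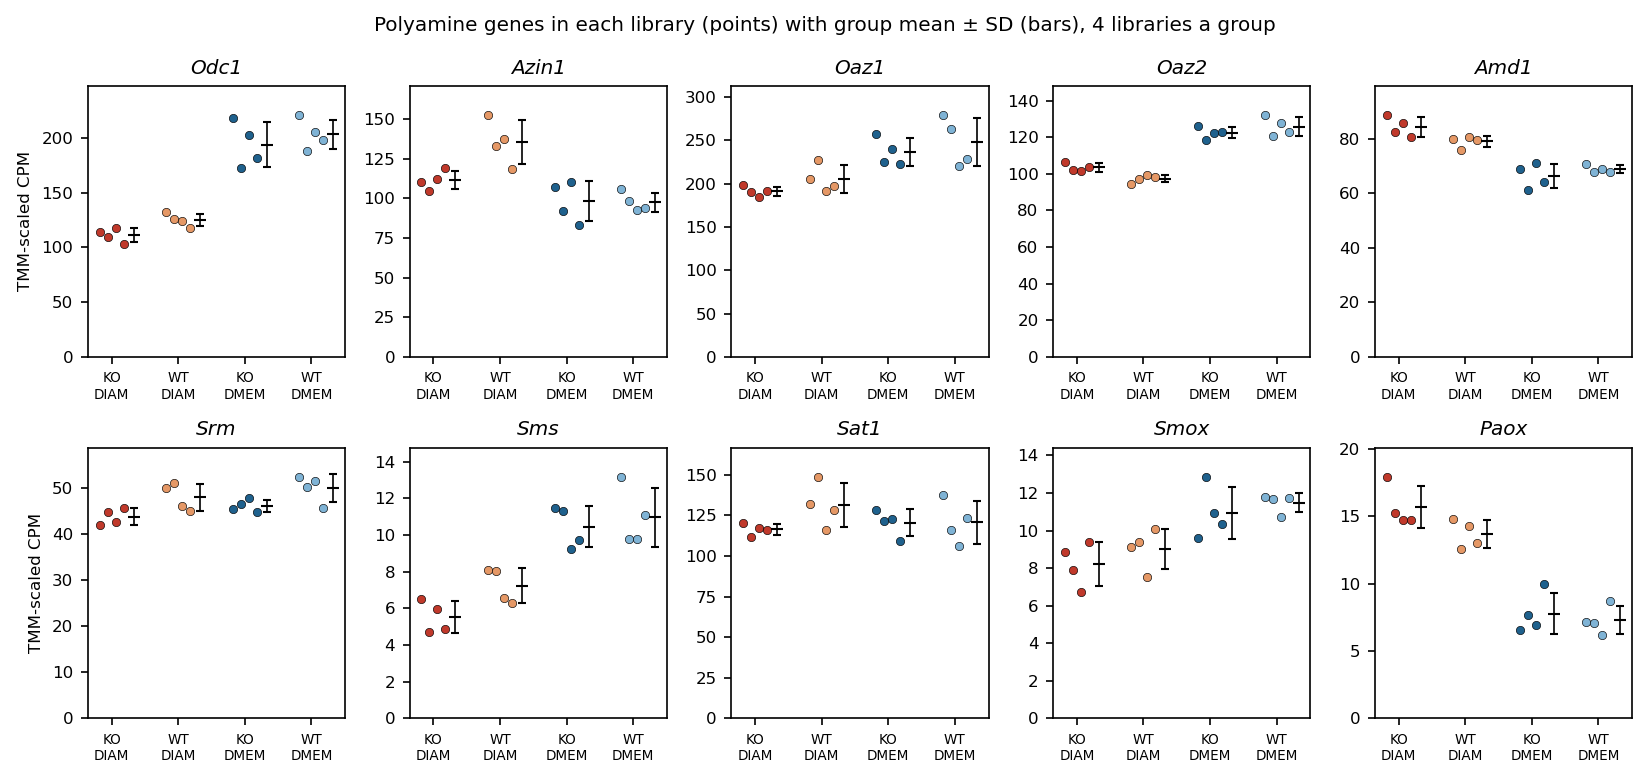
TMM-scaled counts (CPM) of the 10 polyamine genes on the vertical axes, which start at 0, in each library (points) by group, with the mean and SD of 4 libraries (bars). Odc1 and Sms stood lower and Paox higher in DIAM than in DMEM in both genotypes, and no library in DIAM overlapped one in DMEM for these 3 genes.

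Odc1, whose protein makes putrescine, had 114, 109.6, 118 and 103 CPM in the 4 KO libraries in DIAM, against 218, 173, 202 and 181 CPM in the KO libraries in DMEM. WT libraries had 132, 125, 124 and 118 CPM in DIAM, against 221, 188, 205 and 198 CPM in DMEM. In both genotypes every library in DIAM lay below every library in DMEM. The log2 fold change was -0.80 ± 0.07 (SE) in KO cells (adjusted p = 9.27e-08) and -0.70 ± 0.07 in WT cells (adjusted p = 5.31e-07), which put Odc1 at 0.574 and 0.615 of its DMEM level. Of all genes tested, 77.1% had a smaller absolute change in KO cells and 77% in WT cells. Under 27 alternative settings in KO cells and 28 in WT cells the log2 fold change stayed between -0.88 and -0.73 and between -0.74 and -0.65.

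Azin1, the antizyme inhibitor, went the other way in WT cells. It had 152, 133, 137 and 118 CPM in the WT libraries in DIAM, against 106, 98.2, 92.6 and 93.8 CPM in DMEM, with no overlap (log2 fold change 0.47 ± 0.09, SE, adjusted p = 0.000274). KO libraries had 110.1, 105, 112 and 119 CPM in DIAM, against 107, 91.9, 110.3 and 83.2 CPM in DMEM. Here 2 of the 4 libraries in DMEM reached into the DIAM range, and the log2 fold change of 0.18 ± 0.09 did not pass the test (adjusted p = 0.0834, interval -0.00 to 0.37). Without KO library 1 or 3 in DMEM, the 2 highest of that group, it passed, at 0.23 (adjusted p = 0.0486) and 0.24 (adjusted p = 0.0325).

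The antizymes were the next step of the circuit. Antizyme messages carry a stop codon in their first reading frame, and polyamines make ribosomes slip by 1 base past it, so that full-length antizyme is made mainly where polyamines are plentiful. Message counts do not measure this step. The 60 bases around this site are shown because Oaz1 and Oaz2 share it and because a copy of Oaz1 in the genome cannot be separated from it there. The capitals mark the slip site with its stop codon, TGA, and the windows are from GENCODE M21 transcripts (Oaz1 on chromosome 10, Oaz2 on chromosome 9, the pseudogene Oaz1-ps on chromosome 17).
Oaz1: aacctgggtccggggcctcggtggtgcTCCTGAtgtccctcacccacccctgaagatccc
Oaz2: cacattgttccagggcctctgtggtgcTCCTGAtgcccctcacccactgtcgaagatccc
Oaz1-ps: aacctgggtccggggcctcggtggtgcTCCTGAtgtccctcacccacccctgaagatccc
The Oaz2 window differed from that of Oaz1 at 11 of 60 bases and the Oaz1-ps window at 0. The first frame stops after 68 codons in Oaz1 and after 32 in Oaz2, and with the shift the frames run for 227 and 189 codons.

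Oaz1, the major antizyme, had 198, 189.9, 185 and 191 CPM in KO libraries in DIAM, against 257, 225, 241 and 223 CPM in DMEM, with every library in DIAM lower. WT libraries had 205, 227, 192 and 197 CPM in DIAM, against 279, 263, 221 and 228 CPM in DMEM, and WT library 2 in DIAM reached into the DMEM range. The log2 fold change was -0.31 ± 0.08 in KO cells (adjusted p = 0.00216) and -0.27 ± 0.08 in WT cells (adjusted p = 0.00591). Oaz2, a second antizyme, had 107, 102, 102 and 104 CPM in KO libraries in DIAM, against 126, 119, 122 and 123 CPM in DMEM. Its WT libraries had 94.6, 97.4, 99.1 and 98.5 CPM in DIAM, against 132, 121, 128 and 123 CPM in DMEM. Neither genotype overlapped between the media. Its SE was the smallest of the set, and log2 fold changes of -0.24 ± 0.04 in KO and -0.37 ± 0.04 in WT cells passed with adjusted p = 5.82e-05 and 7.94e-07.

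Oaz1-ps is the member copy with the most reads. Over 681 aligned bases it differs from Oaz1 at 1 base (99.85% identity, with 4 gap bases not counted), so reads could be assigned to either. It averaged 49.1 ± 2.01 CPM in KO and 48.9 ± 3.68 CPM in WT cells in DIAM, against 60.2 ± 5.44 CPM in KO and 61.0 ± 5.01 CPM in WT cells in DMEM. It also fell, with log2 fold changes of -0.29 in KO and -0.32 in WT cells (adjusted p = 0.00274 and 0.00165). With the copy added to Oaz1, a setting chosen after the data were seen, the log2 fold change was -0.30 in KO and -0.28 in WT cells. Oaz2-ps, 98.51% identical to Oaz2 with 30 gap bases not counted, had at most 7 counts in any library.

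Within each library the balance between enzyme and antizyme messages shifted. The counts are not divided by length here, so only the difference between groups is read from these ratios. On the log2 scale, Odc1 over Oaz1 averaged -0.78 ± 0.10 in KO and -0.71 ± 0.11 in WT cells in DIAM, against -0.29 ± 0.07 in KO and -0.28 ± 0.16 in WT cells in DMEM (SD, n = 4 each). The 8 libraries in DIAM lay between -0.88 and -0.62 and the 8 in DMEM between -0.48 and -0.11, without overlap. Odc1 over Oaz2 averaged 0.10 ± 0.09 in KO and 0.36 ± 0.09 in WT cells in DIAM, against 0.65 ± 0.12 in KO and 0.69 ± 0.04 in WT cells in DMEM. In DIAM the KO libraries, which reached at most 0.21, lay below the WT libraries, which began at 0.26. Azin1 over Oaz1 went up, with -0.77 ± 0.09 in KO and -0.60 ± 0.17 in WT cells in DIAM, against -1.27 ± 0.12 in KO and -1.33 ± 0.08 in WT cells in DMEM. Sat1 over Odc1 averaged 0.07 ± 0.08 in KO and 0.07 ± 0.15 in WT cells in DIAM, against -0.67 ± 0.12 in KO and -0.75 ± 0.13 in WT cells in DMEM. Sat1 thus stood higher relative to Odc1 in every DIAM library than in any DMEM library. These ratios are descriptions and were given no test.

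**Figure D2:**
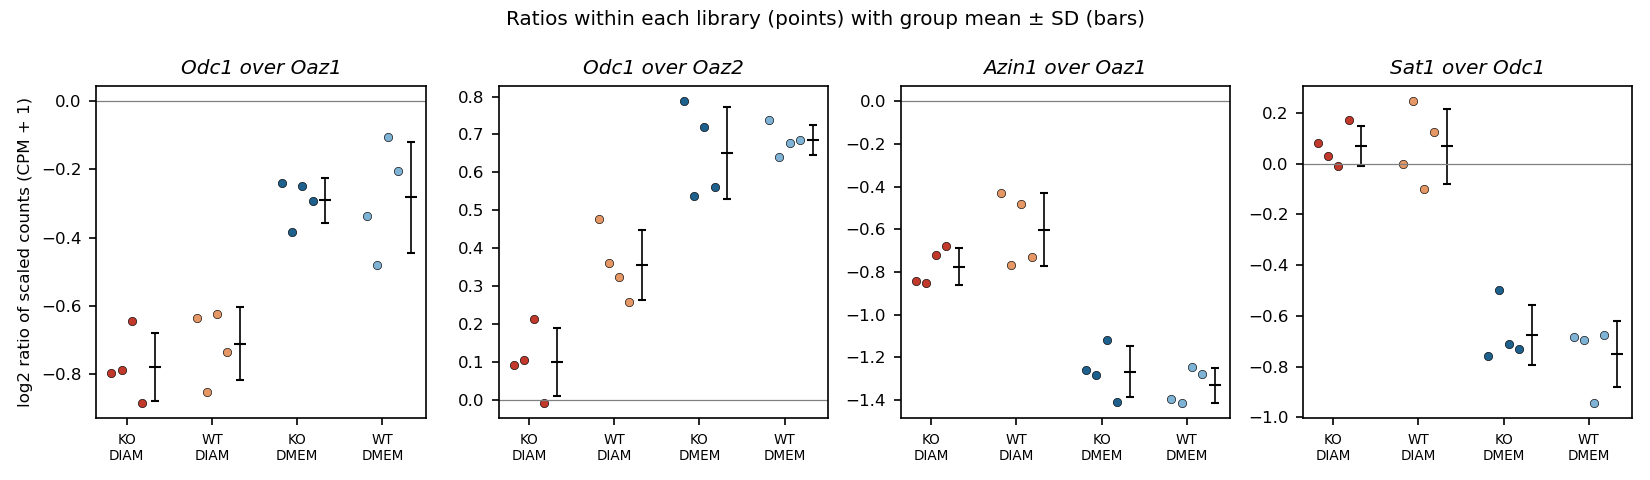
Log2 ratio of scaled counts (CPM + 1) of 2 polyamine genes within each library (points) by group, with the group mean and SD of 4 libraries (bars). The panels show Odc1 over Oaz1, Odc1 over Oaz2, Azin1 over Oaz1 and Sat1 over Odc1. Odc1 over Oaz1 lay between -0.88 and -0.62 in the DIAM libraries, against -0.48 to -0.11 in the DMEM libraries.

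The 3 genes of the steps from putrescine to spermine took 3 different courses. Amd1, whose protein makes the aminopropyl donor, had 88.6, 82.2, 85.7 and 80.6 CPM in KO libraries in DIAM, against 68.7, 61.0, 71.1 and 64.2 CPM in DMEM, and rose by 0.35 ± 0.05 on the log2 scale (SE, adjusted p = 1.57e-05). WT libraries had 80.0, 75.9, 80.5 and 79.4 CPM in DIAM, against 70.7, 67.9, 69.0 and 67.8 CPM in DMEM, a rise of 0.20 ± 0.05 (adjusted p = 0.00295). The media did not overlap in either genotype. Srm, spermidine synthase, had 41.8, 44.8, 42.6 and 45.6 CPM in KO libraries in DIAM, against 45.4, 46.5, 47.7 and 44.6 CPM in DMEM, and 49.9, 50.9, 45.9 and 45.0 CPM in WT libraries in DIAM, against 52.4, 50.1, 51.5 and 45.7 CPM in DMEM. Its groups overlapped and its log2 fold changes of -0.07 ± 0.05 in KO and -0.06 ± 0.05 in WT cells did not pass (adjusted p = 0.251 and 0.382), with intervals of -0.19 to 0.04 and -0.17 to 0.06. Scaling moved the KO value past the threshold, to -0.15 with library totals alone (adjusted p = 0.0221) and -0.16 with quantile normalization (adjusted p = 0.0205).

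Sms, spermine synthase, fell the most of all 10 genes in KO cells. It had 6.52, 4.71, 5.94 and 4.86 CPM in KO libraries in DIAM, against 11.5, 11.3, 9.25 and 9.72 CPM in DMEM. WT libraries had 8.07, 8.03, 6.55 and 6.30 CPM in DIAM, against 13.2, 9.79, 9.78 and 11.1 CPM in DMEM. No library of one medium reached those of the other. The log2 fold change was -0.92 ± 0.14 in KO (adjusted p = 2.12e-05) and -0.60 ± 0.13 in WT cells (adjusted p = 0.00121). Between 187 and 570 reads stood behind each library's value, against 3963 to 9692 for Odc1. Sms-ps, a copy identical to Sms over all of its 1101 bases, had 12, 58, 0 and 51 counts in KO and 52, 44, 49 and 39 in WT libraries in DIAM, against 94, 84, 117 and 74 in KO and 72, 60, 99 and 74 in WT libraries in DMEM. With the copy added, the log2 fold change of Sms was -1.02 in KO and -0.60 in WT cells. For Amd1, the copies Amd2 (99.69% identical over 3198 bases) and Amd-ps4 (99.7% over 1003 bases) held little. Gaps of 4 and 2 bases are not counted there. Amd2 had 12 to 41 counts in KO and 22 to 36 in WT libraries in DIAM, against 12 to 37 in KO and 16 to 43 in WT libraries in DMEM, and Amd-ps4 had at most 22.

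The breakdown genes also split. Sat1, the acetyltransferase that begins breakdown and that rises with polyamine excess in many cells, had 120.3, 112, 117 and 116 CPM in KO libraries in DIAM, against 129, 122, 123 and 109 CPM in DMEM, and 132, 149, 116 and 128 CPM in WT libraries in DIAM, against 137, 116, 106 and 123 CPM in DMEM. The groups overlapped, and neither -0.05 ± 0.08 in KO (adjusted p = 0.602, interval -0.22 to 0.12) nor 0.12 ± 0.08 in WT cells (adjusted p = 0.212, interval -0.05 to 0.29) passed. Without WT library 1 in DMEM the WT value was 0.19 (adjusted p = 0.0490). Smox, the spermine oxidase, had 8.87, 7.90, 6.71 and 9.38 CPM in KO libraries in DIAM, against 9.59, 12.9, 10.9 and 10.3 CPM in DMEM, a log2 fold change of -0.41 ± 0.12 (adjusted p = 0.00611). WT libraries had 9.11, 9.38, 7.52 and 10.1 CPM in DIAM, against 11.8, 11.7, 10.7 and 11.7 CPM in DMEM, a change of -0.35 ± 0.12 (adjusted p = 0.0181). The media did not overlap, though the gaps were small, and without WT library 3 in DIAM the WT change of -0.27 no longer passed (adjusted p = 0.0655).

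Paox, the oxidase that returns acetylated spermine and spermidine to the smaller polyamines, rose the most of the set. It had 17.9, 15.3, 14.7 and 14.8 CPM in KO libraries in DIAM, against 6.57, 7.65, 6.93 and 9.94 CPM in DMEM, and 14.8, 12.6, 14.3 and 13.03 CPM in WT libraries in DIAM, against 7.13, 7.10, 6.18 and 8.74 CPM in DMEM. Every library in DIAM lay above every library in DMEM of its genotype. The rise was 2.01-fold in KO cells (1.01 ± 0.13 on the log2 scale, adjusted p = 4.77e-06) and 1.88-fold in WT cells (0.91 ± 0.13, adjusted p = 1.88e-05). The libraries were not stranded, and in GENCODE M21 Paox shares 142 exon bases with Echs1, a gene of mitochondrial fatty acid oxidation on the opposite strand, so reads there cannot be told apart. Echs1 averaged 91.4 ± 9.39 CPM in KO and 75.8 ± 4.93 CPM in WT cells in DIAM, against 59.2 ± 3.95 CPM in KO and 59.8 ± 5.02 CPM in WT cells in DMEM, and rose by 0.63 and 0.34 on the log2 scale (adjusted p = 4.46e-06 and 0.00165). Its part in the Paox value was not tested. Azin1 shares 358 exon bases with the opposite-strand gene Gm49077, which had at most 6 counts in any library.

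**Figure D3:**
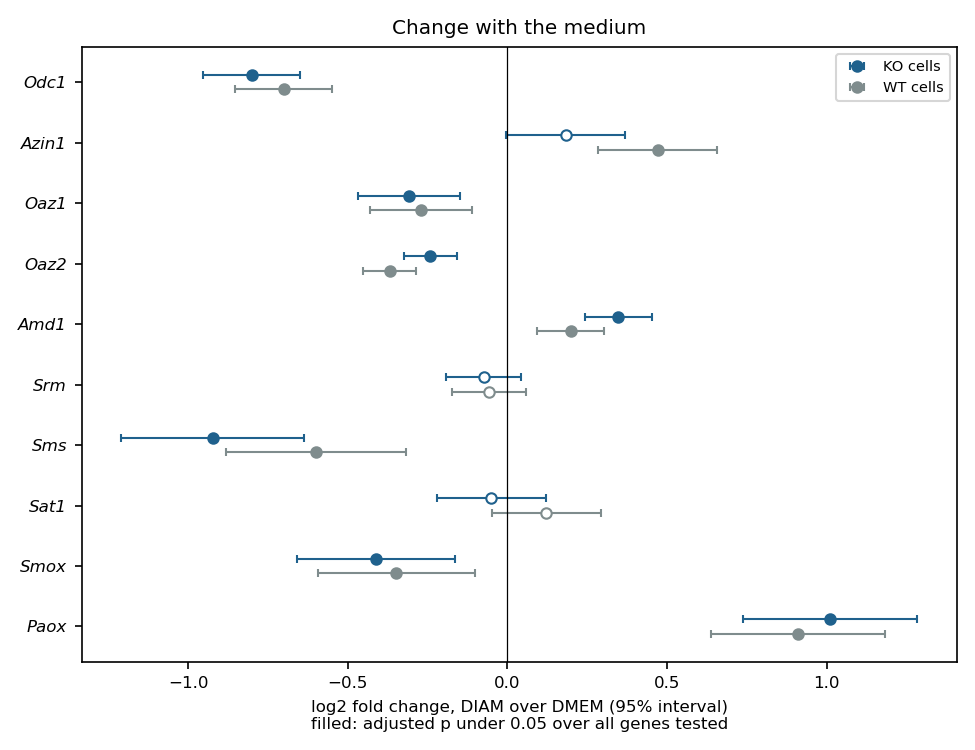
Log2 fold change, DIAM over DMEM, of each polyamine gene (horizontal axis) with its 95% interval, in KO cells (upper of each pair) and WT cells (lower). Filled points passed an adjusted p of 0.05 over all genes tested. Paox lies farthest to the right, at 1.01 in KO and 0.91 in WT cells, and Odc1 and Sms farthest to the left.

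Promoters are shown for the genes that moved the most in each direction, Odc1 and Sms among those that fell and Paox and Amd1 as those that rose in both genotypes. The sequences are the 250 bases before the start of transcription from RefSeq on build GRCm38.p6, read 5′ to 3′ on the gene's strand. Capitals mark matches to 5 motifs searched on both strands: the E-box CACGTG, to which MYC and MAX bind, the GC box GGGCGG, which reads CCGCCC on the opposite strand, the TATA box TATAAA, the cyclic AMP response element TGACGTCA and the glucocorticoid response element, named only.
Odc1, chr12:17544623-17544872, plus strand: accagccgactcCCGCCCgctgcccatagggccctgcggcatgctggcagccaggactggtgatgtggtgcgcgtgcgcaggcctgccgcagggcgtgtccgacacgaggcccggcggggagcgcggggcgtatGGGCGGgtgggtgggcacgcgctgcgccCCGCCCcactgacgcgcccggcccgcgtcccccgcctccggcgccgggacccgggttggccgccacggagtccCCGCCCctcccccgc
Sms, first of 2 start sites, chrX:157492288-157492537, minus strand: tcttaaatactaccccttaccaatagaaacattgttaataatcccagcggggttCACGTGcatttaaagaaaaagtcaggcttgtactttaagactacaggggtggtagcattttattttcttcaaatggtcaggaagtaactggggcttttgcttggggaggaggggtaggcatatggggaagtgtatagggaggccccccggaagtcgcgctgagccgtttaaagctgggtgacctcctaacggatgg
Amd1, chr10:40302189-40302438, minus strand: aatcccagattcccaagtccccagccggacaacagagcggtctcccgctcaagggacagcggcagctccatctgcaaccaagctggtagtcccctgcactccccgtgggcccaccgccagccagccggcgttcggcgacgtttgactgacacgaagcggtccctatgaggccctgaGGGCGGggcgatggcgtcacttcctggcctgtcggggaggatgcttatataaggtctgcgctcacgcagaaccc
Paox, first of 2 start sites, chr7:140125407-140125656, plus strand: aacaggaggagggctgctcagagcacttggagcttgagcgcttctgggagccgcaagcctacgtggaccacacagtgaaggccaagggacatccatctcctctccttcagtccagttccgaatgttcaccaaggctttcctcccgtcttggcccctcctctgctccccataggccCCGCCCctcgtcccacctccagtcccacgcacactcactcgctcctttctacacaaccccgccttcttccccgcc
Odc1 held 4 GC boxes, Amd1 and this start site of Paox 1 each, and this start site of Sms 1 E-box. The second start site of Sms held 4 GC boxes and no E-box. Both windows of Paox overlap and share 1 GC box, which the counts below take for 2 promoters. In all, 8 of the 10 genes had 10 promoters in the RefSeq table. Of these, 8 held a GC box, against 32.7% of the 32851 mouse promoters of the table, and 1 held the E-box, against 6.02%. None held the TATA box (12.4% of all promoters), the cyclic AMP response element (1.55%) or the glucocorticoid response element (0.0609%). Genes that fell and genes that rose both held GC boxes. A match is a run of letters and was not tied to binding of any factor, and a missing match speaks only of these letters in this window.

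In DMEM the genotypes were close. None of the 10 polyamine genes passed the test between KO and WT cells by edgeR, against 0% of all genes (0 of 14217). DESeq2 and the authors' deposited table also called none of the 10, where they called 1 and 2 of all genes. At an unadjusted p of 0.05, 438 genes (3.08%) differed, 1 of them a polyamine gene, Srm. Srm averaged 46.1 ± 1.34 CPM in KO and 49.9 ± 2.99 CPM in WT cells (SD, n = 4 each), a log2 fold change of -0.12 ± 0.05 (adjusted p = 1, edgeR). The estimates of the 10 genes ran from -0.12 to 0.10 with a median of -0.06, against -0.01 over all genes, and 8 of them were below 0. No gene had libraries without overlap, where 1.6% of all genes did. For Odc1 the interval of the difference was -0.22 to 0.08, for Oaz2 -0.12 to 0.04, for Amd1 -0.16 to 0.05, and for the low genes Sms and Paox -0.35 to 0.21 and -0.18 to 0.37.

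In DIAM the cells of KO mice differed more widely from those of WT mice, and none of the polyamine genes passed the main edgeR test. By edgeR 0 of the 10 passed, where 8.38% of all genes did, while at an unadjusted p of 0.05 the count was 6 of 10, with 25.7% of all genes. DESeq2 and the authors' deposited table each called 1, Azin1. Both also called more of all genes than edgeR did, with counts given in the section on processing. Their call of Azin1 is to be read against that larger background and does not set the polyamine genes apart. The estimates of 7 genes were below 0 and those of 3 above, and their median was -0.13, against 0.00 over all genes. By edgeR the number for all genes, 1191, was itself sensitive to the libraries and ran from 178 to 1480 with 1 library left out. It was 178 without KO library 2 in DIAM, 275 without KO library 1, 299 without WT library 1, 316 without WT library 2 and 0 when only these 2 groups were fitted.

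Azin1 and Sms had the largest differences. Azin1 averaged 111 ± 5.83 CPM in KO and 135 ± 14.0 CPM in WT cells in DIAM (SD, n = 4 each), with KO library 4 inside the WT range. The log2 fold change was -0.28 ± 0.09 (SE), interval -0.47 to -0.09, adjusted p = 0.0588. The authors' deposited table gave -0.28 with an adjusted p of 0.0186, and DESeq2 -0.27 with 0.0332. Leaving out WT library 4 in DIAM or KO library 4 in DMEM also put it past the threshold (adjusted p = 0.0263 and 0.0404). Sms averaged 5.51 ± 0.868 CPM in KO and 7.24 ± 0.946 CPM in WT cells in DIAM, at 0.761 of the WT level (log2 fold change -0.39 ± 0.14, adjusted p = 0.0816). Only its highest KO library, number 1, reached into the WT range. With Sms-ps added to it the value was -0.43 and passed, with adjusted p = 0.0268. With the replicate number as a block in edgeR, a pairing that no label states, Azin1 and Sms both passed (adjusted p = 0.0462 each).

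Among the others, 2 of the 10 genes, Oaz2 and Amd1, had libraries that did not overlap between genotypes, where 16.4% of all genes did not overlap. Both were higher in KO cells. Oaz2 averaged 103 ± 2.28 CPM in KO and 97.4 ± 1.97 CPM in WT cells, a log2 fold change of 0.09 ± 0.04 (adjusted p = 0.174). Amd1 averaged 84.3 ± 3.57 CPM in KO and 78.9 ± 2.08 CPM in WT cells, 0.09 ± 0.05 on the log2 scale (adjusted p = 0.246). Neither passed. Odc1 averaged 111 ± 6.42 CPM in KO and 125 ± 5.80 CPM in WT cells, with 1 KO library, the highest at 118 CPM, above the lowest WT library at 118 CPM by under 1 CPM, and a log2 fold change of -0.17 ± 0.07 (adjusted p = 0.149). Srm (-0.13 ± 0.05, adjusted p = 0.14) and Sat1 (-0.17 ± 0.08, adjusted p = 0.186) were also at unadjusted p under 0.05 and not past the adjusted threshold. Oaz1 (-0.10 ± 0.08, adjusted p = 0.412), Smox (-0.13 ± 0.12, adjusted p = 0.512) and Paox (0.20 ± 0.13, adjusted p = 0.355) did not pass either. Some cell type markers also passed between genotypes in DIAM, where 8.38% of all genes did. Of the smooth muscle (10), fibroblast (10), leukocyte (10) and mesothelial (8) markers tested, 0 passed. The summed Schwann and neuronal markers, of which 1 of 7 tested was lower in KO cells, ran from 60.4 to 195 CPM in KO and from 296 to 690 CPM in WT libraries, with 1 of the 9 markers in the table averaging under 0.1 CPM. The summed adipocyte markers, of which 2 of 9 were higher, ran from 2717 to 3912 CPM in KO and from 1837 to 2844 CPM in WT libraries, and overlapped. Of 10 endothelial markers 1 was lower in KO cells, with overlapping sums of 86.7 to 142 CPM in KO and 98.6 to 139.9 CPM in WT libraries. The part of these cells in the polyamine differences was not tested.

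**Figure D4:**
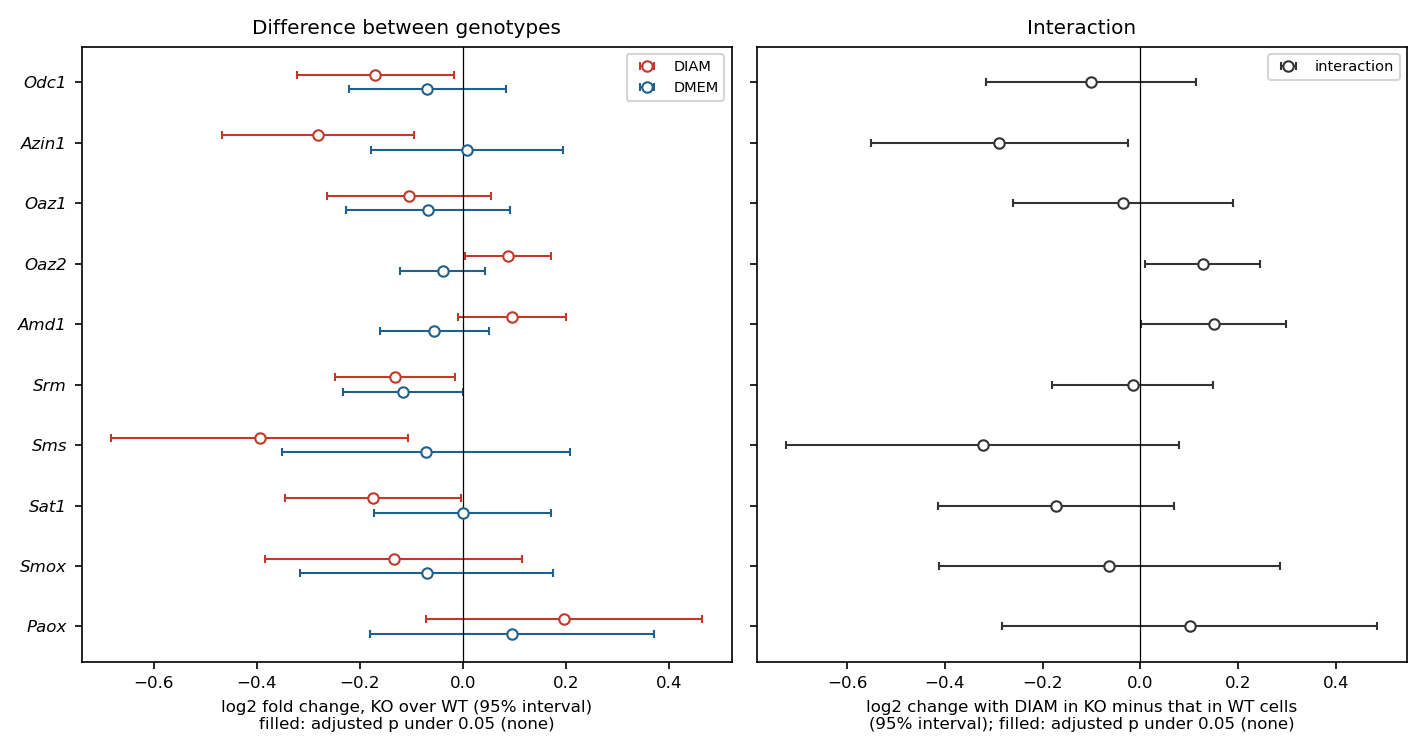
Left, log2 fold change of each polyamine gene, KO over WT cells, with its 95% interval in DIAM (upper of each pair) and in DMEM (lower). Right, the interaction, the change with DIAM in KO cells minus that in WT cells. All points are open because none passed an adjusted p of 0.05, and the lowest estimates in DIAM are those of Sms at -0.39 and Azin1 at -0.28.

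Whether the response to DIAM differed between genotypes was asked with the interaction term, the change in KO cells minus that in WT cells. None of the 10 genes passed by edgeR, DESeq2 or the authors' deposited table. Over all genes edgeR called 0 of 14217 (0%), with 2255 (15.9%) at an unadjusted p of 0.05. DESeq2 and the authors' deposited table did call other genes in the interaction, with counts given in the section on processing. Of the polyamine genes 3 were at an unadjusted p under 0.05: Azin1 at -0.29 ± 0.12 (SE, adjusted p = 0.282), Oaz2 at 0.13 ± 0.06 (adjusted p = 0.284) and Amd1 at 0.15 ± 0.07 (adjusted p = 0.311). So the rise of Azin1 that passed in WT and not in KO cells was not shown to differ between them. For Odc1 the interval of the interaction was -0.32 to 0.11 and for Paox -0.28 to 0.48.

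Other genes of polyamine handling moved with the medium too. Of 16 paralogs, carriers and neighbouring enzymes 13 were in the table and 8 were tested, and 4 rose and 2 fell in KO cells while 5 rose and 2 fell in WT cells. Their median log2 fold change was 0.32 in KO and 0.44 in WT cells, against -0.02 and -0.01 over all genes. The counts of this list and of those that follow stand against 60.7% of all genes changed in KO and 55.1% in WT cells. Azin2, the second antizyme inhibitor, fell the most. It had 16.8, 15.2, 15.4 and 20.5 CPM in KO libraries in DIAM, against 49.2, 68.8, 46.3 and 61.3 CPM in DMEM (-1.73 ± 0.15, adjusted p = 9.6e-08), and 22.7, 29.8, 20.0 and 18.4 CPM in WT libraries in DIAM, against 61.7, 54.8, 55.4 and 56.0 CPM in DMEM (-1.32 ± 0.15, adjusted p = 2.01e-06). It thus fell in both genotypes while Azin1 rose in WT cells. Sat2, a paralog of Sat1, averaged 3.05 ± 0.604 CPM in KO cells in DIAM, against 6.75 ± 0.335 CPM in DMEM, and 3.10 ± 0.494 CPM in WT cells in DIAM, against 6.52 ± 0.458 CPM in DMEM (adjusted p = 2.54e-06 and 6.69e-06).

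Of the carriers, 4 rose in both genotypes. Atp13a3, a P5B ATPase that takes up polyamines, averaged 302 ± 19.3 CPM in KO cells in DIAM, against 160.4 ± 8.58 CPM in DMEM, and 269 ± 21.5 CPM in WT cells in DIAM, against 172 ± 8.71 CPM in DMEM (0.91 ± 0.06 and 0.65 ± 0.06, adjusted p = 5.55e-09 and 3.97e-07). Slc3a2, the heavy chain of several amino acid exchangers, rose by 0.41 in KO and 0.45 in WT cells, and Slc7a1, the cationic amino acid carrier that brings in arginine and ornithine, by 0.51 and 0.43 (adjusted p at most 0.000223). Slc12a8, at no more than 1.59 ± 0.453 CPM, rose by 0.89 and 0.52 (adjusted p = 0.00178 and 0.0452). It averaged under 1 CPM in DMEM in both genotypes and passed the filter through the DIAM libraries. Its rise, part of the counts above, is therefore not independent of the filter. Atp13a2, the P5B ATPase that exports polyamines from lysosomes, rose by 0.45 ± 0.11 in WT cells (adjusted p = 0.00313) and had 0.24 ± 0.11 in KO cells (adjusted p = 0.0729). None of the 8 passed between genotypes in either medium or in the interaction. The 2 with the highest mean over all libraries had 0.17 ± 0.06 (Atp13a3, adjusted p = 0.112) and -0.01 ± 0.05 (Slc3a2, adjusted p = 0.956) for KO over WT in DIAM and -0.10 ± 0.06 and 0.04 ± 0.05 in DMEM. Their interactions were 0.27 ± 0.09 (adjusted p = 0.204) and -0.04 ± 0.07 (adjusted p = 0.799).

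Spermidine is also the source of hypusine, a modified lysine made only on the translation factor eIF5A. Of the 4 genes of this step 2 fell in KO and 1 in WT cells, with median log2 fold changes of -0.08 and 0.01. Dhps, deoxyhypusine synthase, which uses the spermidine, fell to 13.9 ± 0.883 CPM in KO cells in DIAM, against 19.6 ± 0.848 CPM in DMEM, and to 15.8 ± 0.932 CPM in WT cells in DIAM, against 20.5 ± 1.64 CPM in DMEM (-0.50 ± 0.07 and -0.37 ± 0.07, adjusted p = 1.34e-05 and 0.000293). Eif5a2, the less abundant eIF5A gene here, fell in KO cells, with a log2 fold change of -0.20 (adjusted p = 0.0219), with overlapping libraries. The substrate gene Eif5a and the hydroxylase gene Dohh, the 2 most abundant, had 0.07 ± 0.05 and 0.04 ± 0.06 in KO cells and 0.06 ± 0.05 and 0.05 ± 0.06 in WT cells, and did not pass. None of the 4 passed between genotypes. In DIAM Eif5a had -0.03 ± 0.05 and Dohh -0.03 ± 0.06, in DMEM -0.04 ± 0.05 and -0.03 ± 0.06, and their interactions were 0.01 ± 0.07 and -0.01 ± 0.09.

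The methionine cycle supplies the donor that Amd1 uses, and the methylthioadenosine left by Srm and Sms is salvaged back to methionine. Of 16 tested genes listed for these routes 6 rose and 4 fell in each genotype, with median log2 fold changes of 0.06 in KO and 0.04 in WT cells. The 6 that rose were the same in both. Mat2a, which makes adenosylmethionine, averaged 227 ± 9.31 CPM in KO cells in DIAM, against 129 ± 4.23 CPM in DMEM, and 209.6 ± 11.2 CPM in WT cells in DIAM, against 125 ± 5.87 CPM in DMEM (adjusted p = 1.06e-09 and 3.53e-09). Its regulatory subunit Mat2b rose by 0.51 and 0.38. Cbs, which draws homocysteine out of the cycle, rose, with 13.7 ± 1.72 CPM in KO cells in DIAM, against 1.28 ± 0.165 CPM in DMEM, and 9.35 ± 2.14 CPM in WT cells in DIAM, against 1.43 ± 0.115 CPM in DMEM (adjusted p = 1.1e-10 and 1.42e-09). Nnmt, which spends adenosylmethionine on nicotinamide, rose by 0.80 and 0.74, Ahcyl1 by 0.95 and 0.61, and Ahcyl2 by 1.61 and 1.16. The last 2 are relatives of Ahcy, the hydrolase gene of the cycle, and a part of theirs in the cycle was not tested. Ahcy itself did not pass. It averaged 62.3 ± 9.39 CPM in KO cells in DIAM, against 57.5 ± 7.61 CPM in DMEM. In WT cells it averaged 62.2 ± 4.19 CPM in DIAM, against 61.1 ± 7.07 CPM in DMEM. Among those that fell, Mtap, which cleaves methylthioadenosine, had -0.22 ± 0.05 and -0.17 ± 0.05 (adjusted p = 0.00147 and 0.00974), and Adi1, a later salvage enzyme, -0.33 ± 0.07 and -0.38 ± 0.07. Between genotypes in DIAM 4 of the 16 passed, where 8.38% of all genes did: Ahcyl2 (0.50 ± 0.13, adjusted p = 0.0341), Cbs (0.55 ± 0.15, adjusted p = 0.0367) and Ahcyl1 (0.33 ± 0.10, adjusted p = 0.0498) were higher in KO cells and the salvage enzyme Enoph1 (-0.26 ± 0.08, adjusted p = 0.044) lower. None of these 4 calls held when only the 2 groups were fitted (adjusted p = 0.0891 to 0.136). With 1 of the 16 libraries left out, Ahcyl1 was lost in 13 fits, Enoph1 in 12, Cbs in 5 (KO library 1, 2 or 4 or WT library 1 or 2 in DIAM) and Ahcyl2 in 3 (KO library 1 or 2 or WT library 1 in DIAM), at adjusted p up to 0.144, 0.138, 0.106 and 0.0956. None passed in DMEM, where the 2 most abundant, Ahcyl1 and Mat2a, had -0.01 ± 0.10 and 0.05 ± 0.05, nor in the interaction, where they had 0.34 ± 0.14 and 0.07 ± 0.07.

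**Figure D5:**
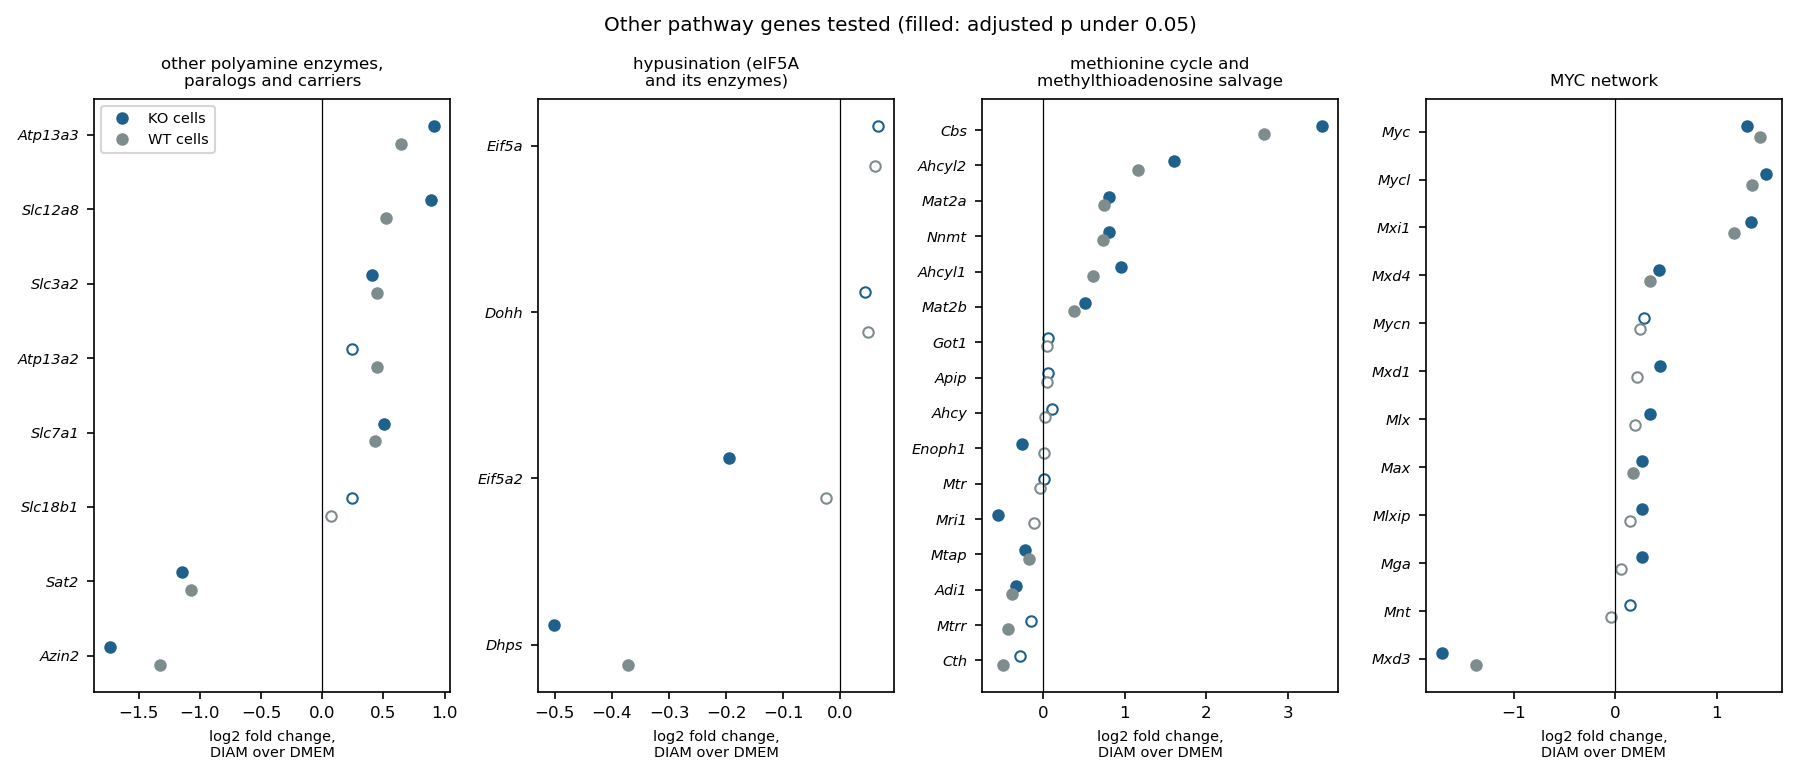
Log2 fold change, DIAM over DMEM (horizontal axes, each on its own scale), of the tested genes of 4 other lists in KO cells (upper of each pair) and WT cells (lower). Filled points passed an adjusted p of 0.05. Azin2 and Sat2 lie at the far left of the first panel, and Myc lies at 1.30 in KO and 1.42 in WT cells.

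Odc1 is a classical target of the transcription factor MYC, and the 2 messages moved in opposite directions with DIAM. Myc had 34.6, 34.4, 32.7 and 38.4 CPM in KO libraries in DIAM, against 12.3, 15.8, 11.4 and 17.2 CPM in DMEM, and 36.2, 32.3, 35.6 and 35.7 CPM in WT libraries in DIAM, against 13.9, 13.6, 12.9 and 11.8 CPM in DMEM. It rose by 1.30 ± 0.11 in KO (adjusted p = 3.47e-08) and 1.42 ± 0.11 in WT cells (adjusted p = 1.56e-08) with no overlap between the media. Of 12 genes of the MYC network 9 rose and 1 fell in KO cells, and 5 rose and 1 fell in WT cells, against 60.7% and 55.1% of all genes changed. Their median log2 fold change was 0.31 in KO and 0.20 in WT cells. Those that rose in both included Max, the partner of MYC (0.27 and 0.17), and Mxi1 (1.34 and 1.17) and Mxd4 (0.43 and 0.34), which compete with MYC for that partner, as well as Mycl (1.48 and 1.35). Mxd3, of the same family of competitors, fell, with log2 fold changes of -1.71 and -1.37, and averaged at most 2.20 ± 0.268 CPM. Mycl averaged under 1 CPM in DMEM and Mxd3 under 1 CPM in DIAM, in both genotypes. Each passed the filter through the medium where it was high, so these calls are not independent of the filter. None of the 12 passed between genotypes or in the interaction. Mxd4 and Mga, the most abundant, had 0.01 ± 0.05 and 0.16 ± 0.08 in DIAM, -0.08 ± 0.05 and -0.05 ± 0.08 in DMEM, and interactions of 0.08 ± 0.07 and 0.21 ± 0.11. Myc itself had 0.00 ± 0.10 in DIAM (adjusted p = 0.993) and 0.12 ± 0.11 in DMEM.

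Polyamine oxidation by Paox and Smox releases hydrogen peroxide and aldehydes. Of 12 genes that remove such products 5 rose and 2 fell in KO cells, and 4 rose and 1 fell in WT cells, with median log2 fold changes of 0.02 and -0.07. Aldh1a1 averaged 1008 ± 53.3 CPM in KO cells in DIAM, against 144 ± 30.2 CPM in DMEM, and 833 ± 58.5 CPM in WT cells in DIAM, against 131 ± 7.11 CPM in DMEM. The mitochondrial aldehyde dehydrogenase Aldh2 rose by 1.45 and 1.09, catalase (Cat) by 1.35 and 0.87, and the mitochondrial peroxiredoxin Prdx3 by 1.06 and 0.56. Glutathione peroxidase 1 (Gpx1) fell, with log2 fold changes of -0.26 and -0.38, and so did Prdx2 in KO cells, with -0.48, where Aldh3a2 rose by 0.16. In DIAM 3 of the 12 were higher in KO than in WT cells, where 8.38% of all genes passed in either direction. Cat averaged 237 ± 20.9 CPM in KO and 171 ± 25.2 CPM in WT cells (0.47 ± 0.09, adjusted p = 0.012), Aldh2 784 ± 33.3 and 600.2 ± 79.8 CPM (0.39 ± 0.07, adjusted p = 0.012) and Prdx3 102 ± 12.97 and 73.6 ± 10.0 CPM (0.48 ± 0.11, adjusted p = 0.0175). With only these 2 groups fitted the 3 calls were lost (adjusted p = 0.0694 for Cat and 0.0696 for Aldh2 and Prdx3). Prdx3 was also lost without KO library 1 or 2 or WT library 1 or 2 in DIAM (adjusted p = 0.0508 to 0.0637), and Cat and Aldh2 in 0 of 16 such fits. None passed in DMEM, where the 2 with the highest mean over all 16 libraries, Prdx1 and Aldh1a1, had -0.02 ± 0.07 and 0.14 ± 0.11, or in the interaction, where they had 0.07 ± 0.10 and 0.14 ± 0.16.

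The 5 genes whose pattern was most like that of Odc1, by Pearson correlation of log2(CPM + 1) over the 16 libraries among 10591 named genes at 5 CPM or more, were Chmp2b (0.995), Tmem30a (0.992), Rcn2 (0.990), Rnf11 (0.990) and Tvp23b (0.990). The 16 values share the medium, which separates them into 2 clusters. Within the 8 libraries in DIAM the same genes had correlations with Odc1 of 0.960, 0.920, 0.967, 0.808 and 0.821, and within the 8 in DMEM of 0.931, 0.904, 0.972, 0.937 and 0.906. The same 16 libraries served to pick the genes, so these correlations and the changes with DIAM are not independent of that choice. All 5 fell with DIAM in both genotypes. Their log2 fold changes were -0.48 and -0.42 for Chmp2b, -0.51 and -0.46 for Tmem30a, -1.05 and -1.02 for Rcn2, -0.61 and -0.60 for Rnf11, and -0.81 and -0.75 for Tvp23b, in KO and WT cells in that order. Among the polyamine genes themselves, deviations from the group means were most alike for Oaz1 and Sat1 (r = 0.79 over 16 libraries), Odc1 and Amd1 (0.75) and Sms and Sat1 (0.72), and most opposed for Odc1 and Smox (-0.55). These are descriptions over libraries that share their depth and composition.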

How the data were processed

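Per the labels' protocols, libraries were unstranded and depleted of ribosomal RNA. The tools named in the submitters' processing notes are R 4.4.2, DESeq2 1.46.0, Salmon 1.9.0 and FastQC, with the build GRCm39. The labels call the deposited values TPM, but the columns sum to 37221313 counts or more and differ, so the deposited values were taken as estimated counts and rounded. The authors also deposited log2 fold changes, p-values and, not used here, a mean signal per gene. CPM are TMM-scaled. Genes with at least 1 CPM in at least 4 of 16 libraries were tested with edgeR 4.0.16 (R 4.3.3, quasi-likelihood, robust, 1 model over 4 groups, 12 residual degrees of freedom, two-sided), with Benjamini-Hochberg adjustment over 14217 genes. SEs were derived from the log2 fold change and its F statistic; intervals are at 95%. Alternatives used limma 3.58.1, DESeq2 1.42.0, other scalings and filters, and left out each library. The same alternatives for genes of the other lists between genotypes in DIAM were added after the data were seen. Sequences and lengths are from RefSeq (GRCm38.p6) and GENCODE M21. The members and gene lists were chosen with earlier results of these data known. Named are all members and, of each other list, up to 6 genes past the threshold by p, or otherwise the 2 most abundant. The counting model was tested on simulated data.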

Additional observations from a re-analysis of the deposited data

Results flagged for a closer look

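In 2 of 40 sets of 4 libraries (10 genes in 4 groups) 1 library lay far from the others by Dixon's test, which chance does in about 1 of 20 sets. Paox in KO library 1 in DIAM was at 17.9 CPM, above the other 3 at 14.7 to 15.3 CPM. Without that library Paox still rose in KO cells, by 0.94 on the log2 scale (adjusted p = 2.6e-05, edgeR). Smox in WT library 3 in DMEM was at 10.7 CPM, below the other 3 at 11.7 to 11.8 CPM. Without it Smox had a log2 fold change of -0.39 in WT cells (adjusted p = 0.0185).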

How the results depend on the processing

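Odc1, Oaz1, Oaz2, Sms, Amd1 and Paox kept direction and call for DIAM against DMEM in both genotypes under every alternative run on single genes. Where a change of 1 or more on the log2 scale was also required, 2432 genes and 1 polyamine gene, Paox, remained in KO cells and 2140 genes (1292 higher) and 0 polyamine genes in WT cells, and 167 genes between genotypes in DIAM. Leaving out 1 library at a time gave 7 to 8 polyamine genes in KO cells and 7 to 9 in WT cells. The same fits called 8058 to 8737 of the 14217 genes in KO and 7245 to 7870 in WT cells. Between genotypes in DIAM, all genes called numbered 1873 of 14217 with DESeq2 and 1810 of the 20581 in the authors' deposited table. By edgeR they numbered 0 with only the groups compared and 178 to 1480 with 1 library left out. Polyamine genes called there numbered 1 with library totals alone, quantile normalization, DESeq2, the authors' deposited table (Azin1 in each) or copies summed (Sms), and 0 to 1 with 1 library left out. In DMEM DESeq2 called 1 gene, the authors' deposited table called 2 and fits without 1 library 0 to 2. In the interaction DESeq2 called 225, the authors called 234 and fits without 1 library 0 to 1. No label says that replicate numbers pair libraries. Across media within a genotype, same-numbered deviations correlated at -0.09 to 0.32, over 0.1 in 6 of 8 pairs, and 5 of 8 libraries correlated best with their own number, a hint from the data. Across genotypes within a medium the range was -0.22 to 0.17, with 2 of 8 pairs over 0.1. Since not every pair was over 0.1, the numbers were not taken as pairing. With a replicate block of the number within a genotype, 8775 genes changed in KO and 8008 in WT cells with the medium, and 0 in the interaction. Between genotypes the block was the number alone, which pairs KO with WT libraries of the same number. With it 0 genes changed in DMEM and 1191 in DIAM. In DIAM 2 polyamine genes then passed, Azin1 and Sms (adjusted p = 0.0462 each, edgeR), and these calls rest on that pairing across genotypes.

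Values near 0 changed sign, and the cause was not tested. Between genotypes in DMEM, Sat1 (-0.0010) turned to 0.023 with library totals alone, 0.011 with a filter at 5 CPM, 0.0027 with limma at either pseudocount, 0.018 with quantile normalization, 0.0049 with only the groups compared, 0.0019 with the replicate block and 0.0035 to 0.077 without 1 library, and Sms to 0.00016 with copies summed. With 1 library left out the range over all fits was -0.047 to 0.079 for Azin1, -0.12 to 0.0039 for Oaz1, -0.046 to 0.19 for Paox, -0.059 to 0.077 for Sat1 and -0.12 to 0.041 for Sms. In the interaction it was -0.10 to 0.025 for Oaz1, -0.14 to 0.023 for Smox and -0.045 to 0.024 for Srm, where quantile normalization gave 0.0026 for Smox and the authors' deposited table gave 0.00077 for Srm. The fit of only the groups compared gave no interaction, and the authors' deposited table no comparison of media in KO cells. The fewest reads of the 10 genes stood behind Sms, Smox and Paox, at 4.71 to 17.9 CPM.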
